A study of Mus musculus with 4 samples.

Results

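The genes described are 9 genes of mature oligodendrocytes and of the myelin they make: *Mbp*, *Mobp*, *Mal*, *Mag*, *Cnp*, *Mog*, *Cldn11*, *Opalin* and *Ermn*. They were chosen by name, as 9 of 16335 genes in a count table of the mouse hypothalamus. The rule uses no measured value, but the genes were chosen with earlier results of these data known. The deposited values of RefSeq transcripts were summed for each gene, and each *Mbp* transcript was also followed singly. RNA was sequenced from male C57BL/6 mice fed a Western diet (WD), that is 60% fat chow with 30% sucrose solution, for 12 weeks from 8 weeks of age. The 2 WT WD libraries came from wild-type mice and the 2 *Tas1r3*-/- WD libraries from littermates lacking *Tas1r3*, the shared subunit of the sweet and umami taste receptors. Every library was from WD-fed mice, so no normal diet group was compared here. The knockout is conventional, in every cell from conception, on a background backcrossed for at least 7 generations, and an effect within oligodendrocytes cannot be told apart from one outside them. The methods give 3 mice per group, the labels do not say how many mice each library holds, and p-values measure only the spread between these libraries.

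Oligodendrocytes wrap axons of the central nervous system in a multilayered membrane that speeds conduction and supports the axon. In compact myelin the cytoplasmic faces are held together by basic proteins, while the innermost layer, the paranodal loops and the outer surface carry other proteins. The hypothalamus is mostly grey matter crossed by myelinated tracts such as the fornix. In bulk RNA, fewer oligodendrocytes and less RNA per oligodendrocyte cannot be told apart.

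*Tas1r3*, counted first to check the labels, had a level of 6.01 and 4.45 CPM (counts scaled to library size) in the WT WD libraries and of 1.12 and 1.23 CPM in the *Tas1r3*-/- WD libraries, called knockout libraries where paired with WT WD values. Libraries held 5874782 to 6273772 estimated counts. The library labelled WT WD replicate 2 did not match a hypothalamus by its markers. The summed level of 18 hypothalamic genes was 74.7 CPM there and 1567 to 2269 CPM in the other 3 libraries, with *Nkx2-1* and *Nr5a1*, which define hypothalamic territory, at 0. The summed level of 10 thalamic markers was 3191 CPM there against 629 to 847 CPM, and that of 10 choroid plexus markers 1151 CPM against 222 to 245 CPM. *Ttr* (678 CPM) and *Enpp2* (371 CPM) made up most of the choroid plexus sum there. *Folr1*, *Kcnj13*, *Aqp1*, *Sostdc1* and *Otx2* were also highest there, *Kl* and *Clic6* were not, and *Prlr* was lowest there. Over all genes tested, it stood a root mean square log2 distance of 0.72 to 0.76 from each of the other libraries, which lay 0.37 to 0.42 from each other. Results are therefore given with and without this library.

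**Figure D1:**
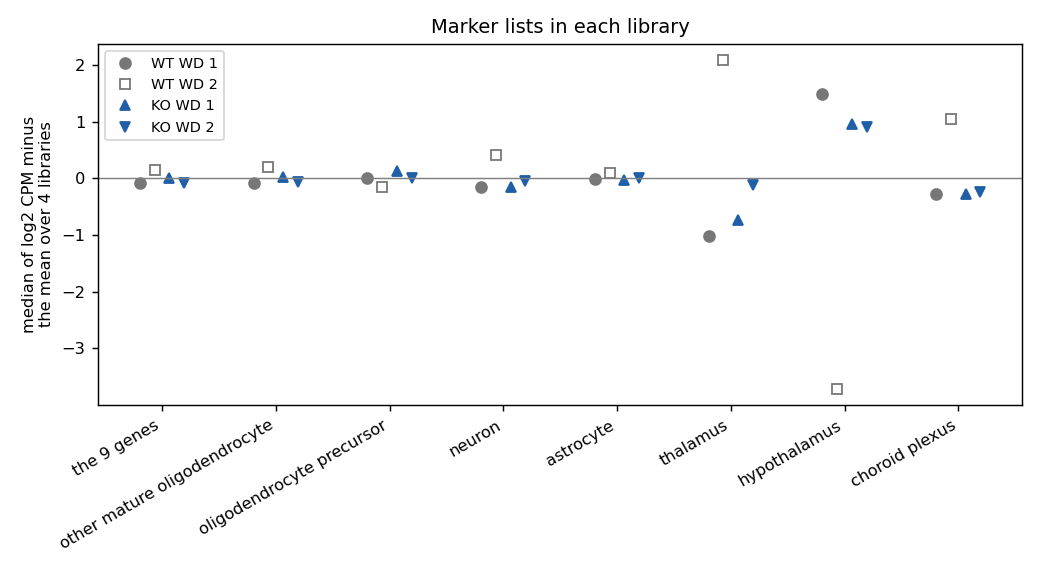
Median level of marker lists in each library, as log2 CPM minus the mean over the 4 libraries, for the 9 genes, other cell types and brain regions. Grey symbols are WT WD and blue symbols Tas1r3-/- (KO) WD, with WT WD replicate 2 open. That library stands apart for thalamic, hypothalamic and choroid plexus genes. The median of the 9 genes is also highest there, by less, at 0.14 against -0.09 to 0.01 in the other libraries.

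The genes are spread over the genome. In GENCODE M39 on GRCm39, *Mobp* spans chr9:119973770-120011273, *Mal* chr2:127475142-127498615, *Mag* chr7:30598464-30614474 and *Cnp* chr11:100465730-100482936. *Mog* spans chr17:37321521-37334350, *Cldn11* chr3:31203900-31218495, *Opalin* chr19:41045254-41065553 and *Ermn* chr2:57934641-57942882. *Mobp*, *Cnp* and *Cldn11* are on the plus strand and *Mal*, *Mag*, *Mog*, *Opalin* and *Ermn* on the minus strand. None of the 9 lies on chromosome 4, which carries *Tas1r3*.

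Promoter sequence is shown for *Opalin*, *Mobp*, *Mog* and *Cnp*, whose levels took different courses below. *Opalin* was lower in both *Tas1r3*-/- WD libraries, and *Cnp* differed little. *Mobp* and *Mog* were both highest in WT WD replicate 2. *Mobp* was lowest in WT WD replicate 1 and *Mog* in *Tas1r3*-/- WD replicate 2. The sequences are the 250 bases before the gene's start in RefSeq on GRCm38.p6, read 5′ to 3′ on the gene's strand. Capitals mark matches on either strand to CTGGCAC or CTGGTAC, forms bound by MYRF, the regulator of myelin gene transcription, or to ACAAAG or ACAATG, forms bound by SOX factors such as SOX10. The windows are chr19:41077114-41077363 for *Opalin*, chr9:120149492-120149741 for *Mobp*, chr17:37023399-37023648 for *Mog* and chr11:100574689-100574938 for *Cnp*.
Opalin: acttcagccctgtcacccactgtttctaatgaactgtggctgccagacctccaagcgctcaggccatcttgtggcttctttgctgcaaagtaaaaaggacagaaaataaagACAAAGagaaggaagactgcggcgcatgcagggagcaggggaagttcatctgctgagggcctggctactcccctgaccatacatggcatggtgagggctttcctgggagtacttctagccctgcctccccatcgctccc
Mobp: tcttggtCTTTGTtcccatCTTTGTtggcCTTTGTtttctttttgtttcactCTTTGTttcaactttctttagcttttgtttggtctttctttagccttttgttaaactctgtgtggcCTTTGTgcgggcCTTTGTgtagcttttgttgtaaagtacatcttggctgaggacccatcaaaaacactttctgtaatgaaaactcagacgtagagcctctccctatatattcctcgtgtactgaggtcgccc
Mog: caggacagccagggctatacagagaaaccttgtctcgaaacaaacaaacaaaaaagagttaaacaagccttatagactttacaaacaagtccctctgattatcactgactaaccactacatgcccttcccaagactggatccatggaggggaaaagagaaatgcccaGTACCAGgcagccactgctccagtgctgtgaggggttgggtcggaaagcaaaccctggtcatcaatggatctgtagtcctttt
Cnp: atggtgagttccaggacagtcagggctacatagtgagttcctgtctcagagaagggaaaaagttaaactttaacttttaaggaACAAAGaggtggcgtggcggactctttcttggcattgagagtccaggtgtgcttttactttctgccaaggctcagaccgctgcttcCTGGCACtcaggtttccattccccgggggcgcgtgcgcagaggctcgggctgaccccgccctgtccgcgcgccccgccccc

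RefSeq promoters were found for 8 of the 9 genes, all but *Mbp*. These 8 genes have 10 promoters, as *Mag* has several, not all of which hold a match. A gene is counted if any of its promoters holds the match, whereas percentages are shares of promoters. Of these 8 genes, *Cnp* and *Mag* held CTGGCAC, which is in 4.19% of 32851 promoters of the same length, and *Mog* held CTGGTAC, which is in 1.83%. ACAAAG was in *Cnp*, *Mag*, *Mobp* and *Opalin* and in 16.5% of all promoters, and ACAATG was in *Ermn* and in 10.7%. The E-box form CATCTG, not capitalized above, was in *Opalin* and in 14.4% of all promoters, while CAGCTG (13% of all promoters) and TATAAA (12.4%) were in none of the 8. *Mobp* held 6 matches to ACAAAG, and no match shown overlaps another. Whether these matches go with the levels of the genes was not tested. *Mobp* and *Opalin* both hold ACAAAG. Their log2 fold changes, *Tas1r3*-/- WD minus WT WD, were 0.13 (SE 0.20) and -0.45 (SE 0.20). Neither passed the edgeR test (adjusted p = 0.876 and 0.756). Without WT WD replicate 2 the log2 fold changes were 0.41 and -0.55, and without WT WD replicate 1 they were -0.10 and -0.33.

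The 9 genes were well expressed in all 4 libraries, and none passed the test for a difference between WT WD and *Tas1r3*-/- WD. All 9 passed the filter on low counts. None was a differentially expressed gene (DEG, adjusted p under 0.05 and at least 1.5-fold) by the quasi-likelihood test of edgeR, which called 0% of the 14340 genes tested. At an unadjusted p under 0.05 the count was 0 of 9, beside 5.38% of all genes, and DESeq2 called 0.0558% of all genes and none of the 9. Mean levels in *Tas1r3*-/- WD were higher for 4 genes (*Mbp*, *Mobp*, *Cnp* and *Mal*) and lower for 5, beside 51% of all genes that were lower. The median log2 fold change of the 9 was -0.07, against -0.01 over all genes tested. *Opalin* was the single gene whose genotypes did not overlap, with lower levels in *Tas1r3*-/- WD, which was seen in 19% of all genes.

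**Figure D2:**
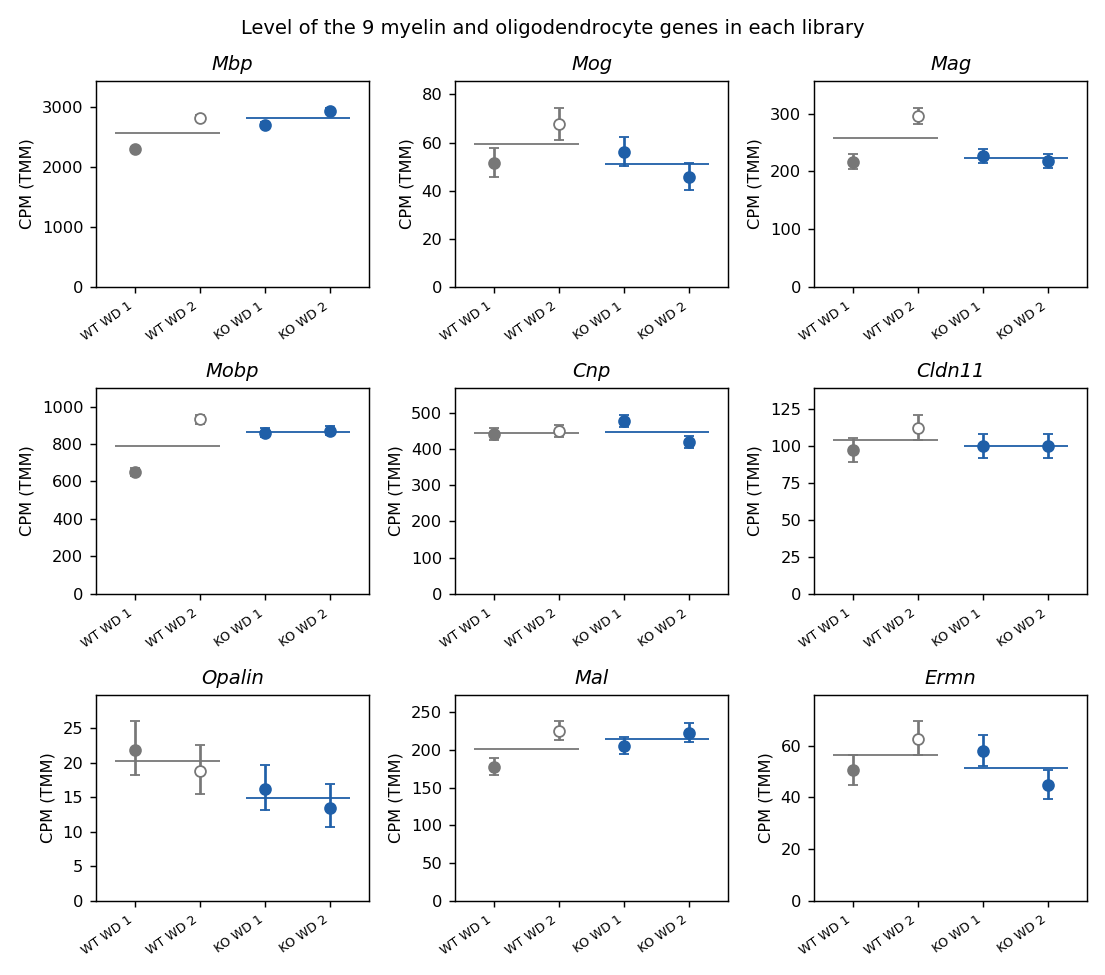
Level of each gene in each library in CPM after TMM normalization, on axes starting at 0, with grey points for WT WD and blue points for Tas1r3-/- (KO) WD. WT WD replicate 2 is open, vertical bars are 95% Poisson intervals of the count in that library, and horizontal lines are the means of 2 libraries. The genotypes overlap in every panel but that of Opalin.

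Levels are compared between genes only per length, as CPM per kb of the canonical transcript. On that scale *Mbp* stood at 1245 (range over the 4 libraries 1065 to 1361), *Mobp* at 529, *Cnp* at 190 and *Mag* at 119. *Mal* followed at 74.8, *Cldn11* at 47, *Mog* at 29.4, *Ermn* at 13.1 and *Opalin* at 6.76 (5.19 to 8.38). In this order no gene's range over the libraries overlapped that of its neighbour. The rank order was thus the same in WT WD and *Tas1r3*-/- WD, including the library with few hypothalamic markers.

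Of the genes of compact myelin, *Mbp* (chr18:82493207-82603763, plus strand) encodes myelin basic protein, which zips the cytoplasmic faces of the membrane together. Its level was 2294 and 2811 CPM in the WT WD libraries against 2694 and 2933 CPM in the knockout libraries. WT WD replicate 1 was lowest and *Tas1r3*-/- WD replicate 2 highest, and the groups overlapped. The means were 2552 ± 365 and 2814 ± 169 CPM (SD, n = 2), a log2 fold change of 0.14 (SE 0.16, 95% interval -0.28 to 0.56, edgeR adjusted p = 0.823). *Mobp*, a second basic protein of the major dense line, gave 651 and 932 CPM in the WT WD libraries against 861 and 871 CPM in the knockout libraries. The *Tas1r3*-/- WD values were close together and lay between the WT WD values (log2 fold change 0.13, SE 0.20, 95% interval -0.40 to 0.66, edgeR adjusted p = 0.876). *Mal*, a proteolipid of myelin membrane rafts, gave 178 and 226 CPM against 206 and 223 CPM. Its libraries stood in the same order as those of *Mobp* (log2 fold change 0.09, SE 0.17, edgeR adjusted p = 0.897).

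*Mag* encodes an adhesion protein of the innermost, axon-facing layer. It gave 217 and 296 CPM in the WT WD libraries against 227 and 218 CPM in the knockout libraries. WT WD replicate 2 was high and the other 3 libraries lay within their 95% counting intervals of each other (log2 fold change -0.20, SE 0.19, 95% interval -0.69 to 0.28, edgeR adjusted p = 0.790). *Cnp*, an enzyme of the cytoplasm-filled channels of myelin, gave 441 and 450 CPM against 477 and 419 CPM. The WT WD values lay between the *Tas1r3*-/- WD values, and the log2 fold change was 0.01 (SE 0.14, 95% interval -0.34 to 0.36, edgeR adjusted p = 0.991).

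*Mog*, a glycoprotein of the outermost myelin surface, gave 51.4 and 67.6 CPM in the WT WD libraries against 55.9 and 45.8 CPM in the knockout libraries. Both groups spread widely, with the highest value in WT WD replicate 2 and the lowest in *Tas1r3*-/- WD replicate 2 (log2 fold change -0.23, SE 0.20, 95% interval -0.73 to 0.28, edgeR adjusted p = 0.779). *Cldn11*, the claudin that forms the tight junction strands of myelin, gave 96.9 and 112 CPM against 99.6 and 99.5 CPM. Its *Tas1r3*-/- WD values lay between those of WT WD (log2 fold change -0.07, SE 0.14, 95% interval -0.42 to 0.28, edgeR adjusted p = 0.902). The 95% interval of the fold change lay within 1.5-fold in either direction for *Mbp*, *Cnp*, *Cldn11* and *Mal*, and for the other 5 genes a change of that size remained inside the interval.

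*Opalin* encodes a sialylated membrane glycoprotein of late oligodendrocytes. Its estimated counts were 127 and 114 in the WT WD libraries against 101 and 77 in the knockout libraries, or 21.8, 18.8, 16.2 and 13.5 CPM. Both *Tas1r3*-/- WD libraries were below both WT WD libraries, yet the 95% Poisson interval of 15.5 to 22.6 CPM in WT WD replicate 2 overlapped that of 13.2 to 19.7 CPM in *Tas1r3*-/- WD replicate 1. The means were 20.3 ± 2.15 and 14.9 ± 1.93 CPM (SD, n = 2), a log2 fold change of -0.45 (SE 0.20, 95% interval -0.97 to 0.07, edgeR adjusted p = 0.756). *Ermn*, a cytoskeletal protein of mature oligodendrocytes, had levels of 50.4 and 62.6 CPM against 57.7 and 44.7 CPM. Here the groups overlapped (log2 fold change -0.14, SE 0.19, 95% interval -0.64 to 0.36, edgeR adjusted p = 0.854).

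**Figure D3:**
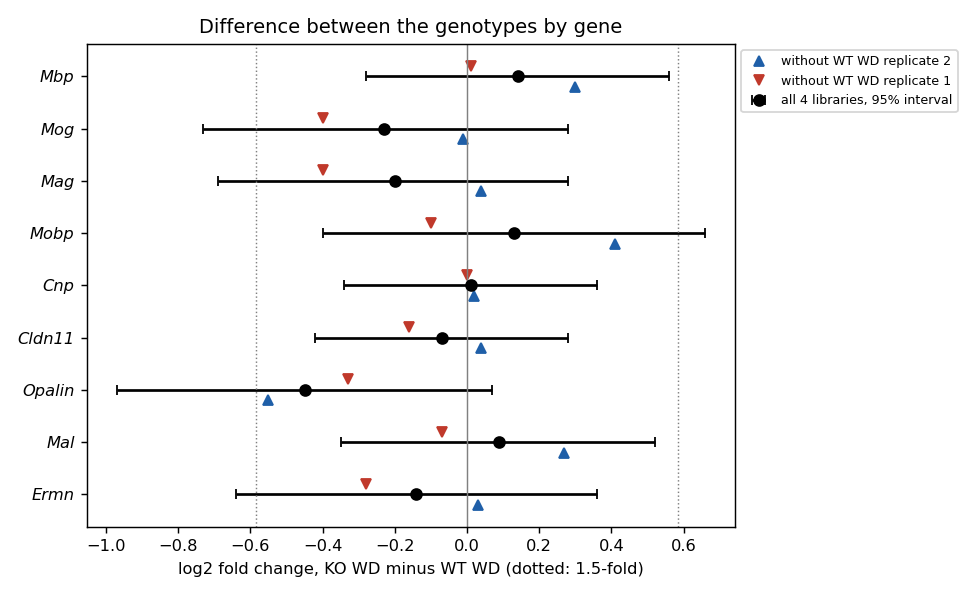
Log2 fold change of each gene, Tas1r3-/- (KO) WD minus WT WD, from edgeR. Black points and bars are all 4 libraries with the 95% interval, triangles leave out 1 WT WD library, and dotted lines are 1.5-fold. All 9 intervals include 0, and Opalin is the gene farthest from it.

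The choice of WT WD library set the direction of most of these differences. WT WD replicate 2 had the highest level of 6 genes, and WT WD replicate 1 the lowest of 5 genes. Without WT WD replicate 2, where the remaining WT WD library is assumed to vary like the *Tas1r3*-/- WD group, 7 genes were higher and 2, *Mog* and *Opalin*, lower in *Tas1r3*-/- WD, beside 49.6% of all genes that were lower. *Mobp* then differed by a log2 fold change of 0.41 (edgeR adjusted p = 0.0945) and *Mbp* by 0.30 (adjusted p = 0.118). *Mal* (0.27, adjusted p = 0.343) and *Opalin* (-0.55, adjusted p = 0.309) were also under an unadjusted p of 0.05. These were 4 of the 9 genes, beside 13.7% of all genes in that edgeR fit, and none was a DEG, as 0.218% of all genes were.

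Without WT WD replicate 1 the direction turned for several genes. In that fit 8 of the 9 genes were lower in *Tas1r3*-/- WD, beside 48.9% of all genes. *Mag* and *Mog* were under an unadjusted p of 0.05, beside 33.7% of all genes. *Mag* was lower, with a log2 fold change of -0.40 (edgeR adjusted p = 0.025), short of 1.5-fold. *Mog* also gave -0.40 (edgeR adjusted p = 0.0797), while *Mbp* gave 0.01 and *Mobp* -0.10. That fit compares *Tas1r3*-/- WD with the library rich in thalamic markers, and 14.3% of all genes were DEGs in it. *Opalin* kept its direction in every fit that left out a library, with values of -0.59 to -0.33, as did *Mbp* (0.01 to 0.30) and *Mog* (-0.40 to -0.01).

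Summed over the 9 genes, the level was 4002 and 4975 CPM in the WT WD libraries against 4695 and 4868 CPM in the knockout libraries. The lowest and the highest library were both WT WD, and the means were 4489 ± 688 and 4781 ± 122 CPM (SD, n = 2). *Mbp* made up 56.5% to 60.3% of the sum in each library. Without *Mbp* the sum was 1708 and 2165 CPM against 2001 and 1934 CPM, so the overlap did not rest on *Mbp*. With WT WD replicate 2 set aside, the remaining WT WD sum was below both knockout sums, with *Mbp* and without it. Over the 9 genes, the WT WD libraries stood a root mean square log2 distance of 0.34 from each other and the *Tas1r3*-/- WD libraries 0.20.

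The balance between the genes was also compared, as CPM of each gene per 100 CPM of *Mbp*. *Mag* stood at 9.47 and 10.5 in the WT WD libraries against 8.43 and 7.44 in the knockout libraries. *Mog* stood at 2.24 and 2.40 against 2.08 and 1.56, and *Cldn11* at 4.23 and 3.98 against 3.70 and 3.39. All 3 ratios were lower in each knockout library than in either WT WD library. *Opalin* (0.951 and 0.669 against 0.603 and 0.46), *Ermn* (2.19 and 2.23 against 2.14 and 1.52) and *Mal* (7.75 and 8.03 against 7.64 and 7.62) did the same, although the gap for *Mal* and for *Ermn* in 1 library was small. *Mobp* and *Cnp* overlapped. These 6 of 8 genes stand beside 31.8% of all genes tested whose value per *Mbp* was lower in the same way, a share that carries the higher mean of *Mbp* itself in *Tas1r3*-/- WD. The ratio was looked at after the levels were known, and no test was made of it.

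The *Mbp* reads were divided among 8 RefSeq transcripts, which share exons, so that the estimated count of each depends on how the quantification split shared reads. NM_001025259 took most of them, with 1596 and 2056 CPM in the WT WD libraries against 1941 and 2094 CPM in the knockout libraries. This was 68.9% and 72.9% of the gene against 72.2% and 71.2%, and the groups overlapped (log2 fold change 0.14, SE 0.17, edgeR adjusted p = 0.959 over 25694 transcripts). NM_001025255 gave 280 and 255 CPM against 256 and 373 CPM. NM_001025258 gave 185 and 188 CPM against 204 and 225 CPM. The latter was higher in both *Tas1r3*-/- WD libraries, as 17.9% of all transcripts were (log2 fold change 0.20, SE 0.15, edgeR adjusted p = 0.941).

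The scarcer *Mbp* transcripts varied most between the WT WD libraries. NM_001025256 gave 117 and 198 CPM in the WT WD libraries against 150 and 112 CPM in the knockout libraries. NM_001025245 gave 77.5 and 44 CPM against 70.6 and 77 CPM, with WT WD replicate 2 alone low. NM_001025254 gave 35.6 and 51.1 CPM against 44.7 and 34.3 CPM. In none of these 3 did the groups separate. NM_001025251 gave 22.6 and 27 CPM against 21.6 and 22.2 CPM, slightly lower in both *Tas1r3*-/- WD libraries, as were 17.8% of all transcripts. NM_010777 was scarce, at 2.43 and 0.496 CPM against 1.6 and 1.76 CPM, with WT WD replicate 2 at about the limit of 3 counts. No *Mbp* transcript had an edgeR adjusted p under 0.941, and edgeR called 0% of all transcripts at an adjusted p under 0.05 and 1.5-fold, with 4.59% at an unadjusted p under 0.05. DESeq2 called 0.0272% of all transcripts, none of *Mbp*.

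**Figure D4:**
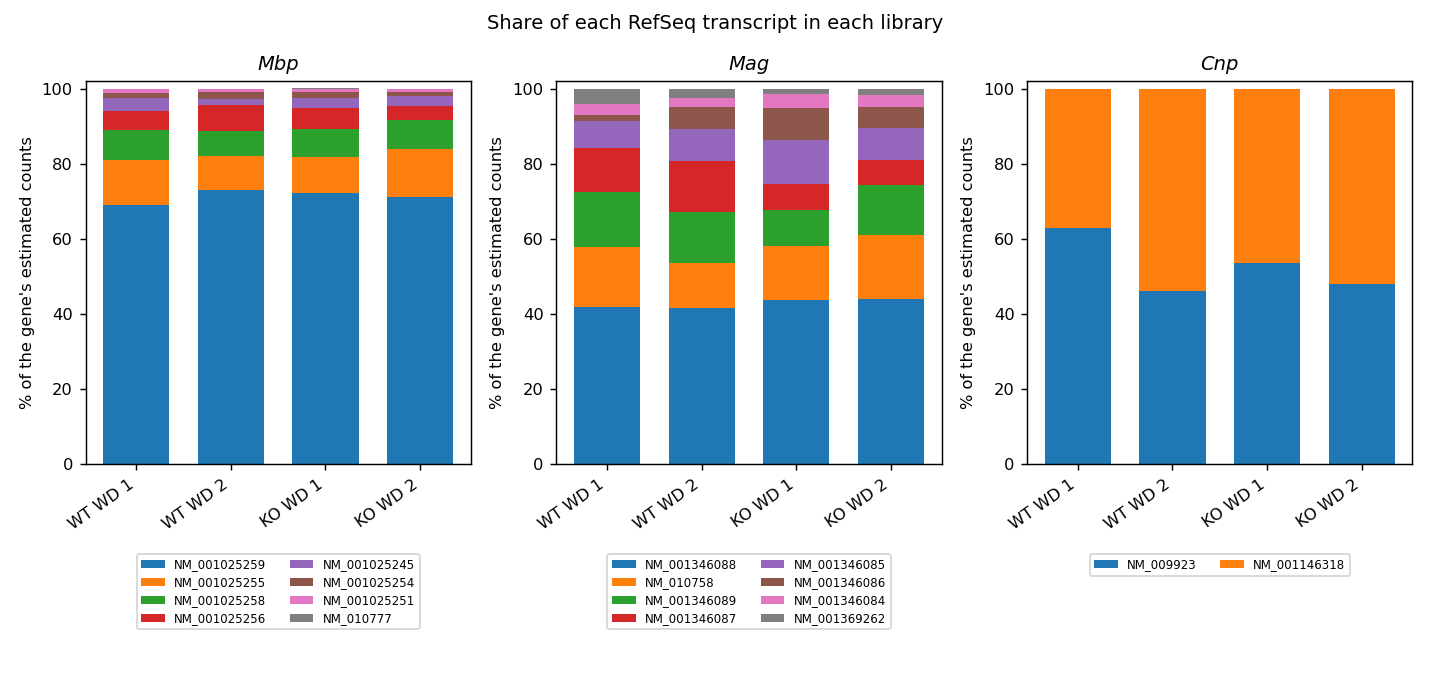
Share of each RefSeq transcript in the estimated counts of Mbp, Mag and Cnp, in percent, stacked for each of the 4 libraries (KO is Tas1r3-/-). NM_001025259 holds 68.9% to 72.9% of Mbp in every library, while the 2 Cnp transcripts trade shares most between the WT WD libraries.

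Over the 9 genes, 4 of 29 transcripts were higher and 5 lower without overlap, shares near the 17.9% and 17.8% of all transcripts. Outside *Mbp*, transcripts of *Mag*, *Cnp* and *Mobp* were singled out after their values were seen. *Mag* NM_001346087 gave 25.7 and 40.8 CPM in the WT WD libraries against 15.7 and 14.4 CPM in the knockout libraries. Its share was 11.7% and 13.7% of the gene in WT WD and 6.97% and 6.57% in the knockout, and its level did not pass the test (log2 fold change -1.14, SE 0.32, edgeR adjusted p = 0.939; -0.77 without WT WD replicate 2). The most abundant *Mag* transcript, NM_001346088, held 41.8% and 41.6% in the WT WD libraries against 43.8% and 43.9% in the knockout libraries. *Cnp* NM_009923 held 63% and 46% of its gene in the WT WD libraries against 53.5% and 48% in the knockout libraries, so the WT WD libraries alone spanned the whole range. In *Mobp*, the noncoding NR_ transcripts took 82.2% to 85.6% of the gene's counts in every library, so most reads assigned to *Mobp* were assigned to a transcript that RefSeq does not list as coding.

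Other genes of mature oligodendrocytes also included no DEG. Of 38 tested, 24 had a lower and 14 a higher mean in *Tas1r3*-/- WD, and the median log2 fold change was -0.12. Without WT WD replicate 2 the median was 0.03, with 18 lower and 20 higher. *Tubb4a*, a tubulin of myelinating cells and neurons, gave 879 and 1203 CPM in the WT WD libraries against 797 and 879 CPM in the knockout libraries, and *Plekhb1* 356 and 384 CPM against 355 and 397 CPM. The WT WD values of *Plekhb1* lay between the knockout values, and *Tubb4a* was high in WT WD replicate 2.

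Among the 38, 10 genes were lower and 2 higher without overlap, beside 19% and 20.6% of all genes tested. *Pllp* and *Plekhh1*, which had an unadjusted p under 0.05, and *Enpp2* are named after their values were seen. *Pllp*, which encodes plasmolipin, a proteolipid related to that of *Mal*, gave 56.7 and 62.3 CPM in the WT WD libraries against 43.6 and 42.5 CPM in the knockout libraries (log2 fold change -0.47, SE 0.13, edgeR adjusted p = 0.756; -0.40 without WT WD replicate 2). *Plekhh1* gave 42.6 and 41 CPM against 56.4 and 52.3 CPM, higher in both *Tas1r3*-/- WD libraries (log2 fold change 0.38, SE 0.12, edgeR adjusted p = 0.756). *Enpp2*, which oligodendrocytes share with choroid plexus and which stands on both lists, gave 138 and 371 CPM against 149 and 136 CPM. It was high in WT WD replicate 2, where *Ttr*, listed only for choroid plexus, was also highest.

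**Figure D5:**
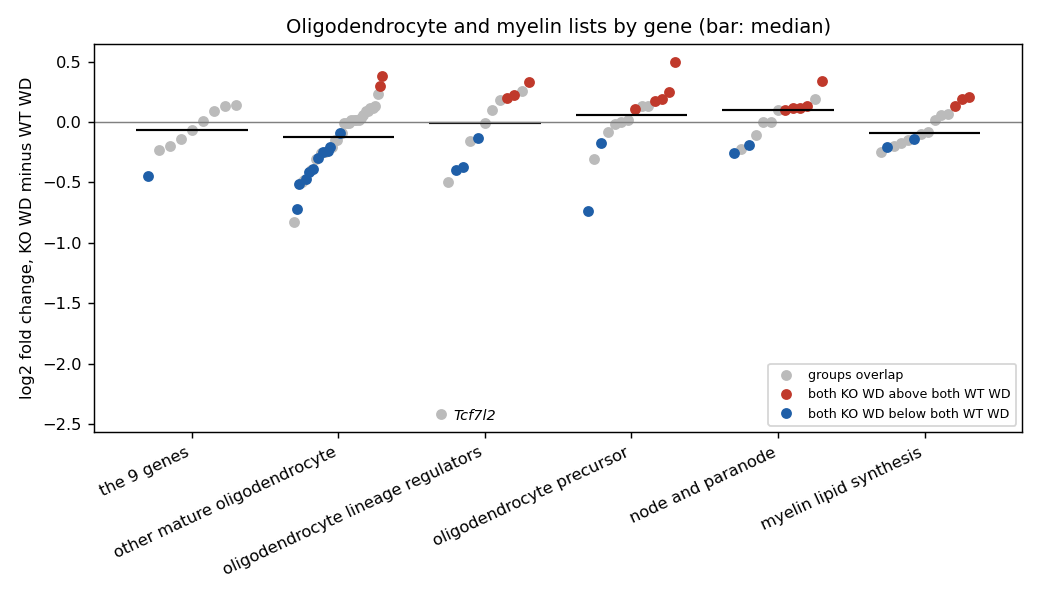
Log2 fold change, Tas1r3-/- (KO) WD minus WT WD, of each tested gene in 6 lists of oligodendrocyte and central myelin biology, with bars at the median of each list. Red and blue points are genes whose 2 KO WD libraries lie above or below both WT WD libraries, and grey points overlap. Medians lie between -0.12 and 0.10, and Tcf7l2 at -2.42 is also a thalamic marker.

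Transcription factors and other regulators of the lineage showed no common direction. Of 13 tested, 6 had a higher and 7 a lower mean, 3 were higher and 3 lower without overlap (20.6% and 19% of all genes), and the median log2 fold change was -0.01 (0.26 without WT WD replicate 2). *Qk*, which encodes the RNA-binding protein quaking that regulates myelin transcripts, gave 170 and 229 CPM against 224 and 228 CPM. *Olig1*, a factor of the whole lineage, gave 139 and 134 CPM against 133 and 116 CPM. *Tcf7l2*, which acts in differentiating oligodendrocytes and is also a thalamic marker, gave 10.8 and 360 CPM against 26.8 and 42.6 CPM. Its high value was in the library labelled WT WD replicate 2 alone.

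The lineage factors *Sox10* and *Olig2*, named after their values were seen, were lower in both *Tas1r3*-/- WD libraries. *Sox10*, which is needed for myelin gene expression, gave 66.7 and 59.3 CPM in the WT WD libraries against 46 and 51.4 CPM in the knockout libraries (log2 fold change -0.37, SE 0.14, edgeR adjusted p = 0.756). *Olig2* gave 50.5 and 40.5 CPM against 36 and 33 CPM (log2 fold change -0.40, SE 0.17, edgeR adjusted p = 0.756). Without WT WD replicate 2 the values were -0.45 and -0.55, so their direction did not rest on that library. The same held in the other direction for *Zfp536*, *Zeb2* and *Yy1*, also named after their values were seen. These were higher in both *Tas1r3*-/- WD libraries (log2 fold changes 0.33, 0.22 and 0.20), and gave 0.39, 0.26 and 0.28 without WT WD replicate 2. *Myrf*, which activates myelin genes directly and was also named after its values were seen, gave 63.8 and 90.3 CPM against 79.4 and 74 CPM and overlapped.

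Oligodendrocyte precursors were represented by 14 tested genes, 9 with a higher mean and 5 with a lower mean (median log2 fold change 0.06, or 0.07 without WT WD replicate 2). *Bcan*, a proteoglycan shared with astrocytes, gave 458 and 361 CPM against 429 and 398 CPM. *Ptprz1*, a receptor phosphatase, gave 290 and 277 CPM against 336 and 338 CPM, higher in both *Tas1r3*-/- WD libraries (log2 fold change 0.25, edgeR adjusted p = 0.756). *Bcas1*, a marker of cells starting to myelinate, gave 175 and 184 CPM against 194 and 192 CPM, and *Pdgfra*, the receptor that defines precursors, named after its values were seen, 76 and 65.8 CPM against 82.4 and 77.4 CPM. In all, 5 genes were higher and 2 lower without overlap, beside 20.6% and 19% of all genes. The precursor genes under an unadjusted p of 0.05 went in opposite directions: *Vcan* was higher (22.3 and 17.8 against 28.4 and 28.4 CPM, edgeR adjusted p = 0.756) and *Neu4* lower (19.2 and 20.1 against 10.4 and 13.2 CPM, edgeR adjusted p = 0.756).

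Genes of the axon and glial partners at nodes and paranodes, where myelin ends, had a median log2 fold change of 0.10, with 8 of 13 higher and 5 lower. *Cntn1*, an adhesion molecule of the paranode, gave 436 and 449 CPM in the WT WD libraries against 478 and 472 CPM in the knockout libraries. *Nfasc*, which anchors glial loops and node components, gave 397 and 394 CPM against 445 and 418 CPM, and *Cadm3*, an axonal adhesion molecule, 500.0 and 383 CPM against 432 and 451 CPM. *Cntn1* and *Nfasc* were higher in both *Tas1r3*-/- WD libraries, as were 5 genes of this list in all, and 2 were lower, beside 20.6% and 19% of all genes. *Ank3*, the scaffold of nodes, had the lowest p of the list, under 0.05 before adjustment (223 and 215 against 288 and 268 CPM, log2 fold change 0.34, edgeR adjusted p = 0.756).

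Lipid synthesis for myelin gave a median log2 fold change of -0.09, with 6 of 14 genes higher and 8 lower (0.08 without WT WD replicate 2). *Scd2*, the main stearoyl-CoA desaturase of brain, gave 1885 and 1576 CPM against 1983 and 2014 CPM. *Fasn*, fatty acid synthase, gave 517 and 541 CPM against 576 and 579 CPM. *Scd2* and *Fasn* were higher in both *Tas1r3*-/- WD libraries, neither past the test (edgeR adjusted p = 0.765 and 0.799). None of the galactolipid enzymes *Ugt8a*, *Fa2h* and *Gal3st1*, named after their values were seen, had an edgeR adjusted p under 0.770.

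Genes listed for peripheral nerve myelin were mostly scarce or absent. Of the 9 listed, not all particular to Schwann cells, 6 were in the table and 3 passed the filter on low counts. Those 3 had a median log2 fold change of -0.17 (0.12 without WT WD replicate 2). The table lists transcripts of at least 10 estimated counts in total. *Drp2* gave 68.2 and 63.8 CPM against 70.1 and 78.1 CPM, *Pmp22*, which brain cells also express, 18 and 24.7 CPM against 18.2 and 19.8 CPM, and *Mlip* was at 0 in 1 library of each genotype.

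Other cell types were read beside these results. The summed level of 12 neuronal genes was 4810 and 6292 CPM in the WT WD libraries against 4854 and 5182 CPM in the knockout libraries. Like the sum of the 9 genes, the neuronal sum was highest in WT WD replicate 2, and none of the 12 genes was a DEG. *Gad1* (402 and 46.2 CPM against 412 and 422 CPM), *Gad2* and *Slc32a1* were instead lowest in that library. *Rbfox3* was highest in WT WD replicate 1, and the rest of the neuronal list was highest in WT WD replicate 2. Astrocyte genes (10) summed to 3667 to 3909 CPM, microglial genes (10) to 356 to 426 CPM and endothelial genes (10) to 282 to 331 CPM, of which the astrocyte sums were higher in both knockout libraries and the other two lists overlapped. Ependymal and tanycyte genes (10) summed to 1483 and 634 CPM in WT WD against 1147 and 979 CPM. *Nnat*, at 1263 and 394 CPM against 941 and 794 CPM, made up most of that sum. *Foxj1* (31.1 and 57 CPM against 27.2 and 30.3 CPM), *Ccdc153*, *Tmem212*, *Rarres2* and *Vim* were instead highest in WT WD replicate 2. *Rax*, *Col23a1* and *Crym* were lowest there, and *Dio2* was neither. Cortical and hippocampal genes (9) reached 1290 CPM in WT WD replicate 2 against 807 to 834 CPM, and striatal genes (10) were at 234 CPM there against 416 to 604 CPM. Pituitary genes (8) summed to 1794 CPM in *Tas1r3*-/- WD replicate 1 and to 4.62 to 126 CPM in the other libraries. What part these differences in the tissue have in the myelin values was not tested.

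The genes whose pattern over the 4 libraries was most like the mean of the 9, among 10865 genes of at least 10 CPM, were *Slc35f6*, *Stk38*, *Pabpc1*, *Ptp4a1* and *Mtpn*. Their centred log2 CPM differed from that mean by a root mean square of 0.0133, 0.0135, 0.0144, 0.0167 and 0.0179. The shared pattern is a value of 0.17 in WT WD replicate 2 and of -0.09 to 0.01 in the other 3 libraries.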

How the data were processed

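Hypothalamic mRNA was sequenced on an Ion Torrent platform. In Partek Flow, the authors mapped reads with STAR (mm39) and counted them against RefSeq transcripts. They deposited unnormalized estimated counts per transcript, of which 13% are exactly whole, with no tolerance. The design had assumed counts per gene. The 30886 transcripts with a gene name, of 30930, were summed to 16335 genes and rounded, and the other 44 (0.385% to 2.53% of a library) were left out. Tests used edgeR 4.0.16 in R 4.3.3 (glmQLFit, TMM, filterByExpr, Benjamini-Hochberg) over 14340 genes and 25694 transcripts, with DESeq2 1.42.0 and limma 3.58.1 as alternatives. Libraries held 5874782 to 6273772 counts, of which 5726320 to 6177693 in named genes give a limit of 0.486 to 0.524 CPM for a count of 0 (3 counts). Intervals and limits cover counting error only. On simulated counts with a dispersion of 0.0514 for every gene and 200 genes changed 3-fold among 14161, edgeR recovered 86%. The simulation held no library set apart like WT WD replicate 2, so this share does not give the power of the tests here. Named are all 9 genes, the *Mbp* transcripts, *Tas1r3*, the 3 most abundant genes of each list (printed for the oligodendrocyte and myelin lists, where some items are not reported here), and the 5 genes closest in pattern. Other genes were chosen after seeing values. The genes and lists were chosen with earlier results of these data known. Promoters are RefSeq's on GRCm38.p6, gene positions GENCODE M39's on GRCm39.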

Additional observations from a re-analysis of the deposited data

How the results depend on the processing

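With all 4 libraries, 196 recomputed values kept their direction and their side of the threshold, or moved by less than the spread between libraries, under DESeq2, limma-trend, RLE factors, total counts, other filters on low counts, no fold threshold and a replicate block. The other 2 were the counts of DEGs by DESeq2, which were 8 genes and 7 transcripts in place of 0 by edgeR (393 and 1038 at an unadjusted p under 0.05). None of the 9 genes was a DEG under any of them. The replicate numbers are shared by label only (correlation of same-numbered deviations 0.0821 over 14340 genes, 2 pairs). With the replicate block, 0 genes were called and 667 had an unadjusted p under 0.05, *Mbp* gave 0.15, *Opalin* -0.45 and *Tas1r3* -2.12, and no call changed. *Tas1r3* gave -2.13 (SE 0.42, edgeR adjusted p = 0.756) with all libraries.

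Leaving out 1 library at a time changed more. DEGs ranged from 0 to 2121 genes, the latter when WT WD replicate 1 was left out (32 when replicate 2 was), and from 0 to 104 transcripts. None of the 9 genes was a DEG. Log2 fold changes ranged from 0.01 to 0.30 for *Mbp*, -0.10 to 0.41 for *Mobp*, -0.07 to 0.27 for *Mal*, -0.40 to 0.04 for *Mag*, -0.09 to 0.09 for *Cnp*, -0.40 to -0.01 for *Mog*, -0.16 to 0.04 for *Cldn11*, -0.59 to -0.33 for *Opalin*, -0.34 to 0.03 for *Ermn* and -2.33 to -1.90 for *Tas1r3*. *Mbp* transcripts ranged from -0.07 to 0.76 (NM_001025245), -0.29 to -0.04 (NM_001025251), -0.36 to 0.15 (NM_001025254), -0.07 to 0.48 (NM_001025255), -0.59 to 0.17 (NM_001025256), 0.13 to 0.28 (NM_001025258), -0.02 to 0.34 (NM_001025259) and -0.52 to 1.73 (NM_010777). Median log2 fold changes ranged from -0.16 to 0.04 for the 9 genes, -0.23 to 0.03 for other mature oligodendrocyte genes, -0.06 to 0.26 for lineage regulators, -0.03 to 0.21 for precursors, -0.38 to 0.12 for peripheral myelin, 0.04 to 0.12 for nodes and -0.08 to 0.08 for lipid synthesis. The log2 ratio of the summed level ranged from -0.06 to 0.26. The lone library of a group was assumed to vary like the other group, and the cause of these shifts was not tested.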
